A study of Mus musculus with 4 samples.

Results

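Accessible chromatin was examined at the keratin genes of mouse hair follicle stem cells, 53 genes out of 21887 protein-coding genes on the nuclear chromosomes. The members were all protein-coding genes of the RefSeq GRCm38.p6 gene table whose symbol is Krt followed by a number, with or without a letter. Genes of the keratin-associated proteins (Krtap) were left out. Of the members, 27 lie on chromosome 11, where the type I keratin genes stand together, and 26 on chromosome 15, which holds the type II genes and the type I gene Krt18. The assay was ATAC-seq: the transposase Tn5 cuts open chromatin and leaves sequencing adapters in the DNA it reaches. Female mice gave back skin at postnatal day 30, from which cells with the reporter H2BGFP, CD34 and CD49f and without Sca-1 were sorted. The Foxc1 knockout mice carried K14-H2BGFP, K14Cre and Foxc1 fl/fl, and the controls carried K14-H2BGFP and Foxc1 fl/fl without K14Cre, so both genotypes share the reporter and the floxed alleles of the forkhead factor gene Foxc1. K14 stands for the Krt14 promoter, which limits the reporter and the Cre to cells where it is active, and the number of mice per library is not among the labels. Each genotype was 1 library, sequenced in 2 runs, and the 4 runs share 1 list of 74777 accessible regions (peaks) without scores, read counts or genotypes. No value belongs to the knockout or to the control alone. All counts below therefore describe both genotypes together, without a test, and the sequencing depth is unknown.

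Keratins build the intermediate filaments of epithelial cells. Each filament is made of pairs of a type I and a type II protein, and which pair a cell uses depends on its type and state of differentiation. Basal keratinocytes use Krt5 and Krt14, suprabasal epidermis uses Krt1 and Krt10, simple epithelia use Krt8 and Krt18, and the layers of the hair follicle have sets of their own. The stem cells sorted here sit in the bulge of the outer root sheath, where Krt15 is a widely used marker and where the hair shaft and inner root sheath keratins belong to later, differentiated descendants.

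Accessible ends were found at all 3 keratin genes of the basal layer and stem cells and at 4 of 5 of the outer root sheath, companion layer and wounds, but at none of the 6 suprabasal genes and 1 of the 15 hair shaft genes. An end peak here is any peak with 1 base or more no farther than 1000 bp from the lower or upper bound of the gene. This held for 16 of the 53 keratin genes (30.2%), and for 57.6% of all protein-coding genes. The count was 9 of 27 on chromosome 11 and 7 of 26 on chromosome 15. A peak lay inside the gene in 20 of the 53 keratin genes (37.7%), against 67.0% of all protein-coding genes, whose median length of 17169 bp exceeds the keratin median of 7070 bp. Both kinds of peak occurred at 13 keratin genes. An end peak alone occurred at Krt23, Krt90 and Krt8, a peak in the gene alone at Krt27, Krt39, Krt33a, Krt76, Krt4, Krt79 and Krt78, and neither at the other 30 genes. In such a bulk sample, a region that is open in a few cells and a region that is slightly open in all of them cannot be told apart.

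**Figure D1:**
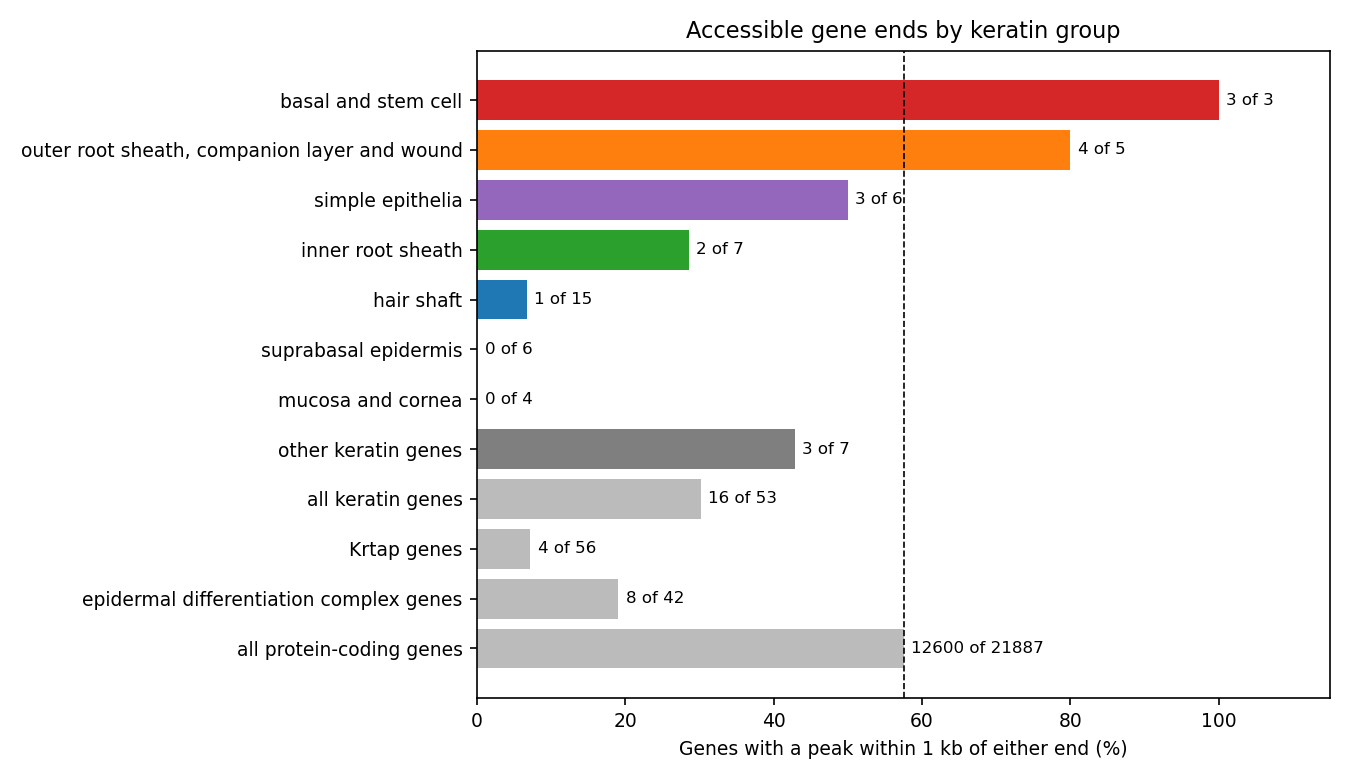
Share of genes with a peak within 1 kb of either end (horizontal axis, percent), for the keratin groups in colour and for the comparison sets in grey, with counts beside the bars and a dashed line at the share of all protein-coding genes. The basal and stem cell group (3 of 3) and the outer root sheath, companion layer and wound group (4 of 5) lie right of the line, and the hair shaft (1 of 15), suprabasal (0 of 6) and mucosa and cornea groups (0 of 4) lie far left of it.

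With the gene and 10000 bp on each side counted, 34 of the 53 keratin genes (64.2%) had a peak, against 78.0% of all protein-coding genes. In that ground 19 keratin genes had no peak, 17 had 1 peak, 12 had 2 or 3, and 5 had at least 4. The highest counts were 8 peaks at Krt42, 7 at Krt17, 7 at Krt78, 4 at Krt5 and 4 at Krt16. Several of these genes are close together, so neighbours count some of the same peaks. The median distance from a keratin gene to the nearest peak was 3171 bp, against 0 bp for all protein-coding genes, and the largest was 40664 bp at Krt12, a keratin of the corneal epithelium. The distance is 0 wherever a peak overlaps the gene. The distances and the shares above were not adjusted for gene length, whose median was 7070 bp in keratin genes and 17169 bp in all.

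Transcription starts and strands were given for 36 of the 53 keratin genes, 34 on the minus strand and 2 (Krt7 and Krt18) on the plus strand. The genes Krt1, Krt4, Krt6a, Krt6b, Krt15, Krt16, Krt17, Krt19, Krt33a, Krt35, Krt80, Krt81, Krt83, Krt86, Krt87, Krt88 and Krt222 were left out of the counts of starts. Of these, Krt6a, Krt15, Krt16, Krt17, Krt19, Krt80 and Krt86 had an end peak. The shares at starts thus miss many of the keratin genes with accessible ends. A peak lay within 1000 bp of an annotated start in 6 of the 36 genes (16.7%), namely Krt25, Krt28, Krt23, Krt90, Krt5 and Krt8, against 58.3% of all protein-coding genes with a start. The start itself was inside a peak in Krt25, Krt28 and Krt5 only (8.33%, against 53.4%). Measured at the outer 5′ bound of the gene, 7 of the 36 had a peak within 1000 bp (19.4%, against 55.2%), the added gene being Krt14. At the 3′ bound the count was 3 of 36 (Krt14, Krt42 and Krt75; 8.33%, against 11.0%).

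The 250 bases before the start are shown for Krt5, Krt25 and Krt28, whose starts lie in a peak, and for Krt71 and Krt10, whose starts do not. Krt71 is a type II keratin of the inner root sheath, and Krt10 is a type I keratin of suprabasal epidermis. Sequences are from RefSeq, build GRCm38.p6, 5′ to 3′ on the gene's strand, with capitals marking matches to the searched motifs on either strand.
Krt5, chr15:101712906-101713155, minus strand: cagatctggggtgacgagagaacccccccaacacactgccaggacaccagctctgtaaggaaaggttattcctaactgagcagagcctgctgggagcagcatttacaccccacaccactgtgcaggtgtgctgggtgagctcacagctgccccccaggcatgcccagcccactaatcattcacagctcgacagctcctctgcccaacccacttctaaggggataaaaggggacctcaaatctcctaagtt
Krt25, chr11:99322952-99323201, minus strand: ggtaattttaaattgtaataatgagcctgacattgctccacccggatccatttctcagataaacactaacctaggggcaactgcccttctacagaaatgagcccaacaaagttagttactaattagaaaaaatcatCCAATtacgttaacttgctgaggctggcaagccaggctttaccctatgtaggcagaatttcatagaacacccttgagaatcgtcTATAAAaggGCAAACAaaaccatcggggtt
Krt28, chr11:99374904-99375153, minus strand: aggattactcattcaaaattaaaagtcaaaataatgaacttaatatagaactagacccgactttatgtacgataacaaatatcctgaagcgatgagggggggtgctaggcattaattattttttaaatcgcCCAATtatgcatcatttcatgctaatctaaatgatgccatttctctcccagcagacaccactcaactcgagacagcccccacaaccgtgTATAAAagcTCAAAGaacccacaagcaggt
Krt71, chr15:101743098-101743347, minus strand: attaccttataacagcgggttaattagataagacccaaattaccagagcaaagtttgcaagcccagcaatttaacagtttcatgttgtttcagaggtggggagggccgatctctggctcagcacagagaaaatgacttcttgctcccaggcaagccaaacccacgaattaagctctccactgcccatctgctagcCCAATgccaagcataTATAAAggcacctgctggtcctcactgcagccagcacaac
Krt10, chr11:99389365-99389614, minus strand: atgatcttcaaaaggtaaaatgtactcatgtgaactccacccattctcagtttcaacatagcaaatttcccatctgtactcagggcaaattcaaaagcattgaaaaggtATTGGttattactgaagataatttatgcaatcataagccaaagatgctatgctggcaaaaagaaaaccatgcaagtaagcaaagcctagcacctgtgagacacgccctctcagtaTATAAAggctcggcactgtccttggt

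In Krt5 and Krt25 all 250 bases shown were inside the peak, in Krt28 the 96 bases next to the start, and in Krt71 and Krt10 none. The letters TATAAA stand 30 to 25 bases before the start in Krt25 and in Krt28, 40 to 35 bases before it in Krt71, and 26 to 21 bases before it in Krt10. Krt25, Krt28, Krt71 and Krt10 also hold CCAAT, in Krt10 as ATTGG on the opposite strand. The forkhead core TGTTTNC is matched in Krt25 by GCAAACA on the opposite strand, 21 to 15 bases before the start, and the TCF/LEF core CTTTGA in Krt28 by TCAAAG, 21 to 16 bases before the start. None of the searched motifs is matched in the 250 bases of Krt5.

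The searched windows ran from 250 bases before to 50 bases after the start, 37 windows for the 36 keratin genes (Krt13 has 2 starts) and 21263 for all protein-coding genes, on both strands, and matches to different motifs could overlap. TATAAA was in 19 of the 37 keratin windows (51.4%), against 12.6% of all windows. On the gene's own strand between 40 and 20 bases before the start it was in 13 keratin windows (35.1%), against 2.42% of all. GGGCGG, the Sp1/KLF box, was in 2 keratin windows (5.41%, Krt7 and Krt75), against 46.2% of all. The TCF/LEF core CTTTGA was in 9 (24.3%, against 14.4%), and the forkhead core TGTTTNC in 5 (13.5%, against 18.2%; Krt18, Krt23, Krt25, Krt27 and Krt40). The remaining motifs were CCAAT in 15 (40.5%, against 38.2%), the AP-2 box GCCNNNGGC in 7 (18.9%, against 19.9%), the AP-1 site TGANTCA in 2 (5.41%, against 6.99%), the SOX core AACAAT in 2 (5.41%, against 9.05%) and the Grainyhead motif AACCNGTT in 0 (against 1.95%). TATAAA was in 3 of the 6 keratin windows with a peak and in 16 of the 31 without.

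Keratin promoters were poor in CpG. The ratio of observed to expected CpG in the same windows had a median of 0.280 in keratin promoters and of 0.567 in all protein-coding promoters, and 28 of the 37 keratin promoters (75.7%) were under 0.4, against 39.4% of all. Across all promoters the share with a peak within 1000 bp was 11.9% where the ratio was under 0.2 and 89.9% where it was 0.8 or more. Among promoters with a ratio under 0.4, 4 of 28 keratin promoters had a peak (14.3%; Krt23, Krt5, Krt8 and Krt90), against 19.8% of all. Between 0.4 and 0.6, 1 of 6 keratin promoters had a peak (Krt25), against 61.0% of all. Of the 3 keratin promoters between 0.6 and 0.8, Krt28 (0.78) had a peak, and Krt7 (0.64) and Krt18 (0.60) had none, where 82.9% of all promoters had one. Keratin genes without a given start, many of them with an end peak, are missing from these counts too. The part of CpG content in the keratin share was not tested.

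**Figure D2:**
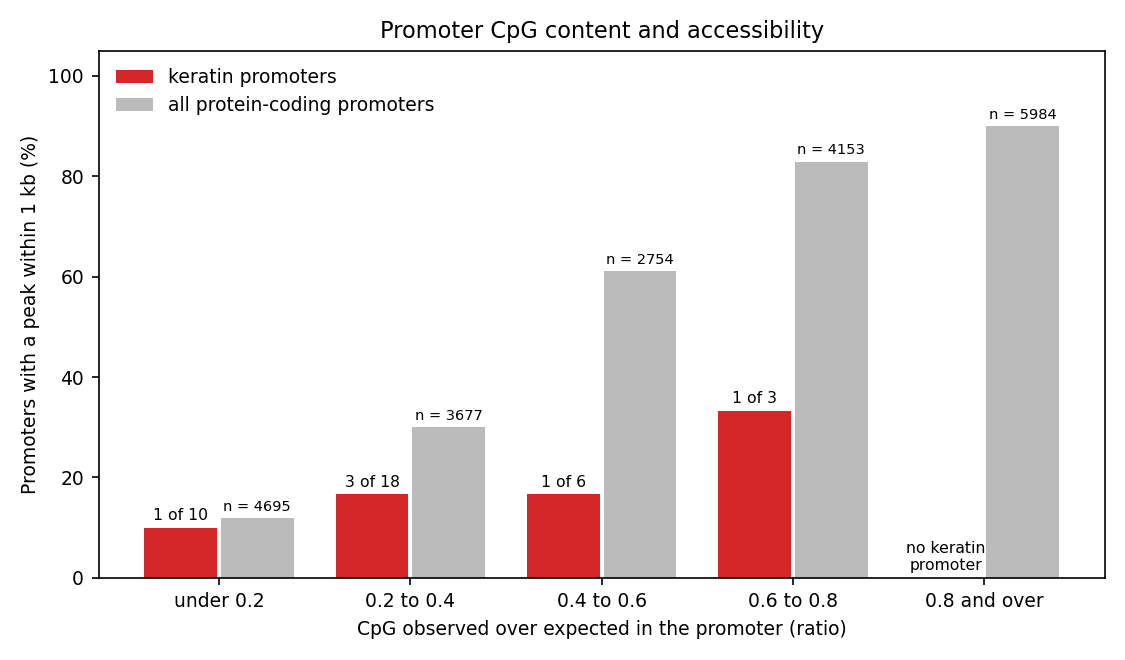
Share of promoters with a peak within 1 kb of the start (vertical axis, percent) by the ratio of observed to expected CpG (horizontal axis), for keratin promoters in red, with counts, and all protein-coding promoters in grey, with n. The grey bars climb from 11.9% to 89.9%, and 28 of the 37 keratin promoters fall in the first 2 bins, where 1 of 10 and 3 of 18 had a peak.

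The basal and stem cell keratins Krt5, Krt14 and Krt15 all had end peaks. Krt5 (chr15:101707069-101712905) had 3 peaks overlapping it, the widest of 2915 bp at chr15:101712418-101715332, which covers the start and 2427 bp upstream of it. It is at least as wide as 98.8% of the peaks in the list. The other 2, of 858 and 296 bp, were inside the gene. Krt14 (chr11:100203162-100207510) had a peak at each bound: one of 3702 bp across its 3′ bound at chr11:100200087-100203788, at least as wide as 99.5% of the list, and one of 2014 bp across its 5′ bound at chr11:100207221-100209234. The annotated start used for Krt14 lies 1480 bp inside the gene's upper bound and 1190 bp from the 2014 bp peak, so Krt14 counts as without a promoter peak but with a peak at its 5′ bound. By their names, the reporter of both genotypes and the Cre construct of the knockout also carry a Krt14 promoter. The labels give neither its sequence nor its species. Whether reads from such copies entered the Krt14 peaks is therefore unknown and was not tested. At Krt15 (chr11:100131759-100135949), a 627 bp peak crossed the upper bound, with 86 bp inside the gene and 541 bp beyond it.

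The keratins of the outer root sheath, the companion layer and wounded epidermis had end peaks at 4 of 5 genes. Krt17 (chr11:100256215-100261029), a keratin of the outer root sheath that is also induced on wounding, was the most covered keratin gene: 61.6% of its length was inside 3 peaks, of 3520, 644 and 2337 bp. Its type I neighbour Krt16, a wound keratin, had a 706 bp peak across the upper bound. Krt6a, a type II partner of Krt16 and Krt17, had a peak of 2805 bp at chr15:101693186-101695990, with 1120 bp inside the gene. Krt6b, a close copy of Krt6a, had none, and its nearest peak was 12892 bp away. The sources used here do not say how reads that match several places were treated, so counts for near-identical genes (Krt6a and Krt6b, Krt33a and Krt33b, Krt81, Krt83, Krt86 and Krt87) are uncertain. Krt75, of the companion layer, had a peak of 970 bp wholly inside the gene at its 3′ end. That peak also lies 658 bp upstream of Krt90 and is the only end peak of Krt90, so 1 region counts for both genes.

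**Figure D3:**
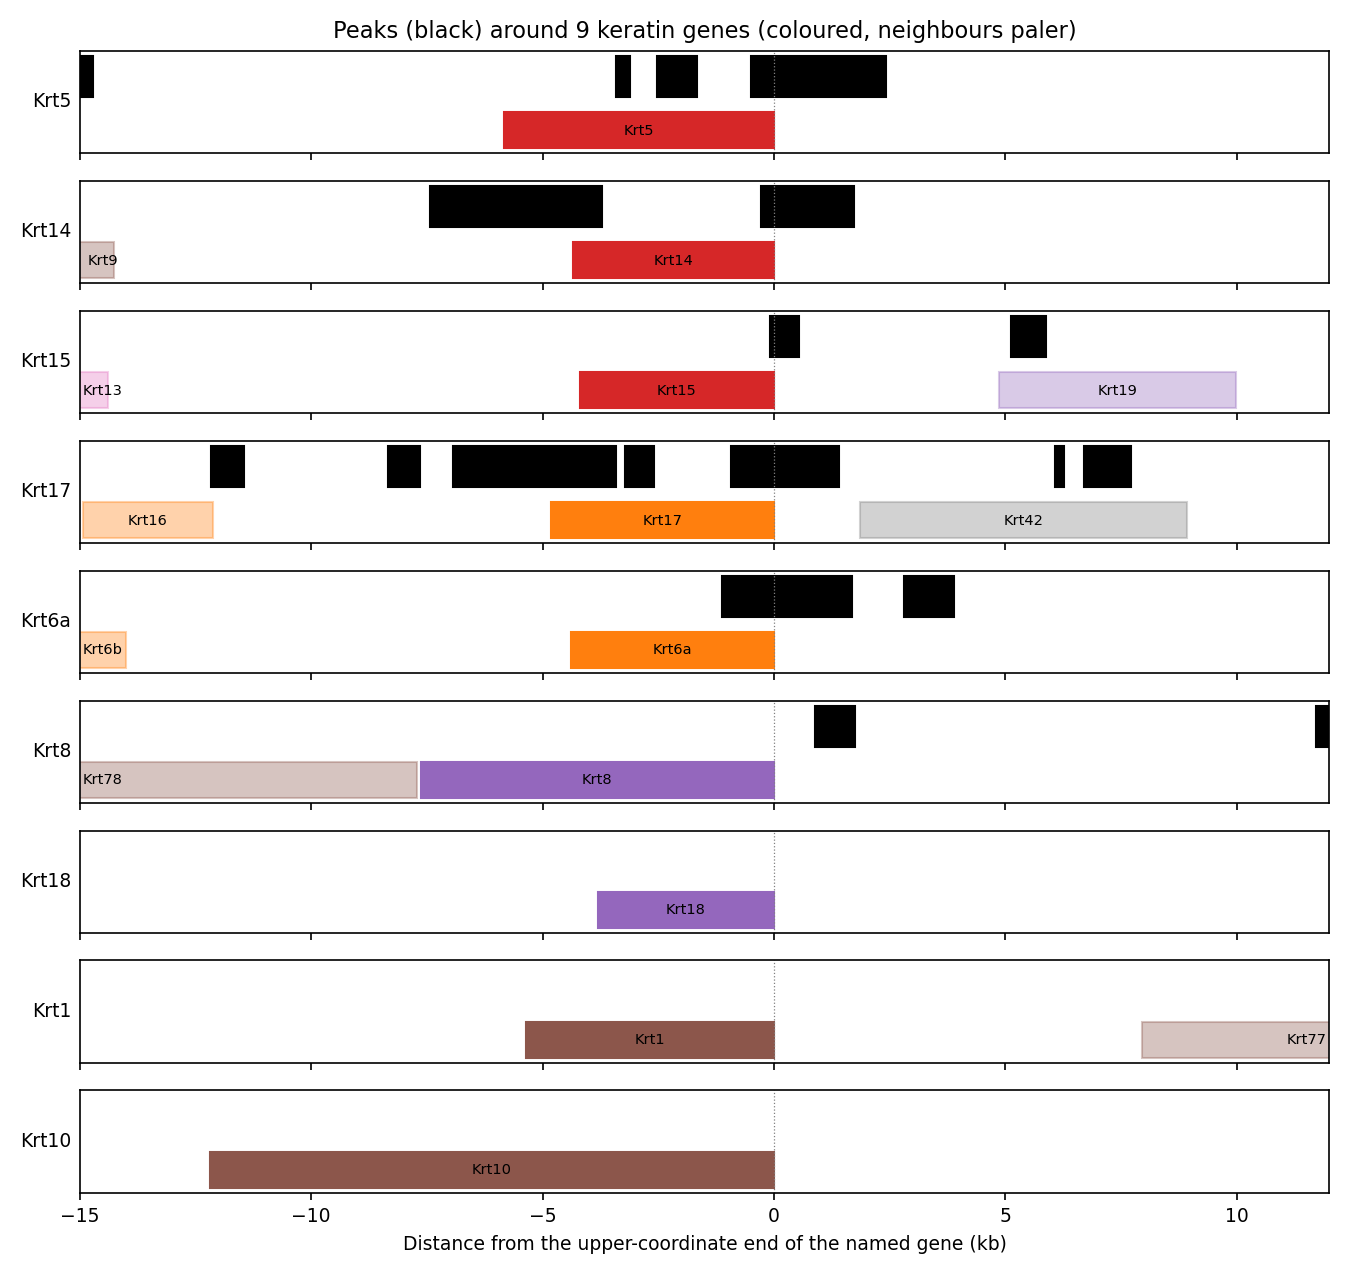
Peaks (black boxes) and keratin genes (coloured boxes, neighbours paler) against the distance in kb from the end of each named gene with the higher coordinate, which is the 5′ bound of Krt5, Krt14, Krt8 and Krt10 and the 3′ bound of Krt18. Peaks cross that end in Krt5, Krt14, Krt15, Krt17 and Krt6a, a peak stands 893 bp beyond it in Krt8, and Krt18, Krt1 and Krt10 have no peak in the ground drawn. The annotated starts of Krt14 and Krt10 lie 1480 and 8085 bp below that end.

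Of the 6 simple epithelial keratins, Krt19, Krt23 and Krt8 had an end peak and Krt7, Krt18 and Krt20 had none. Krt19, which is also found in the bulge, had a peak of 766 bp wholly inside the gene near its lower bound. That bound lies 4319 bp from the Krt15 peak. Krt23 had a peak of 532 bp that begins 196 bp upstream of its start. Krt8 had a peak of 860 bp that begins 893 bp upstream of its start. Its partner Krt18 was 11480 bp from the nearest peak, Krt7, a keratin of glandular epithelia, 15567 bp, and Krt20, a keratin of gut epithelium and Merkel cells, 26843 bp.

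Of the 7 inner root sheath keratins, 2 had end peaks. The type I genes Krt25 and Krt28 had a peak over the start, of 1259 bp (113 bp inside the gene) and 242 bp (146 bp inside). Krt27 had a peak of 436 bp inside the gene, and Krt26 had its nearest peak at 4386 bp, the one of Krt25. Of the type II genes, Krt72 was 3050 bp from a peak, Krt71 18616 bp and Krt73 20182 bp.

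Hair shaft keratins form the cortex and cuticle of the hair and were the largest group. Only Krt86 of 15 had an end peak, of 456 bp, which lies inside the gene. Krt39 and Krt33a had a peak inside the gene only, of 241 and 735 bp. The 12 others had no peak at an end or inside. Krt31, a cortex keratin, lay 4949 bp from a peak of 1267 bp, and Krt35, an early keratin of the hair matrix and cuticle, lay 17852 bp from the nearest one.

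None of the 6 suprabasal keratins (Krt1, Krt2, Krt9, Krt10, Krt77 and Krt78) had an end peak. Krt1, Krt2, Krt10 and Krt77 had no peak within 10000 bp, and their nearest peaks were 36765, 37567, 10254 and 17845 bp away. Krt9, a keratin of palm and sole epidermis, lay 6840 bp from the wide peak at the 3′ bound of Krt14. Krt78 was the exception: its bounds held 5 peaks of 651 to 1353 bp. All lay upstream of its annotated start, between that start and its upper bound, which lie 42337 bp apart. The nearest of them was 19237 bp upstream of the start. The mucosa and cornea keratins Krt4, Krt12, Krt13 and Krt76 had no end peak either, and Krt4 and Krt76 had 1 peak each inside the gene, of 385 and 375 bp.

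The 7 keratin genes outside these groups had end peaks at Krt42, Krt80 and Krt90. Krt80, expressed in differentiating epithelial cells, had a 2441 bp peak across the upper bound, 1775 bp of it inside the gene. Krt42 owed its end peak to the 2337 bp peak at the upper bound of Krt17, 439 bp from it, and held 2 more inside, of 201 and 1010 bp. Krt79, a keratin of the upper follicle and sebaceous duct, held a peak of 220 bp inside. Krt222 and Krt88 lay 1391 and 25101 bp from a peak. Krt24 was 37576 bp from one.

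**Figure D4:**
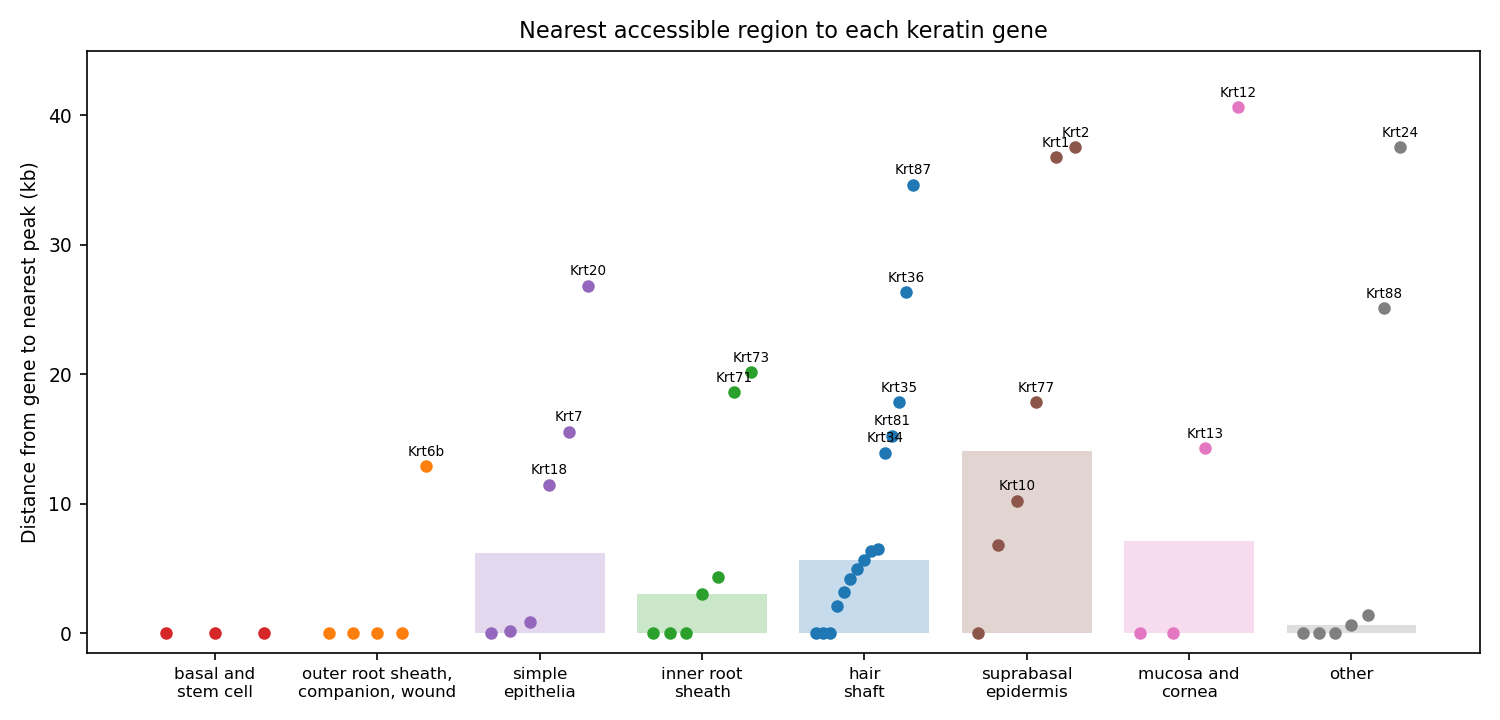
Distance in kb from each keratin gene to its nearest peak (vertical axis; 0 means that a peak overlaps the gene), with 1 point per gene and a pale bar at the group's median. All 3 basal and stem cell genes and 4 of the 5 outer root sheath, companion layer and wound genes are at 0, and genes over 8 kb away are named, Krt12 being the farthest at 40664 bp.

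Some filament partners were set side by side across the clusters, in chosen pairs that do not cover all partners. Krt5 had an end peak together with both of its partners Krt14 and Krt15, and Krt6a together with Krt16 and Krt17. Krt6b, the close copy of Krt6a, had no end peak. Krt1 and Krt10 both lacked an end peak. The partners differed in the other pairs chosen. Krt8 had an end peak and Krt18 did not, and Krt86 had one and Krt31 did not. Krt25 and Krt28 had one and Krt71 did not, but the type I inner root sheath genes Krt26 and Krt27 lacked one, as Krt71 did.

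Of the stretches compared within the cluster bounds, peaks were densest in those from Krt13 to Krt42, from Krt90 to Krt5 and from Krt4 to Krt18. The type I cluster (chr11:99232761-100269951, 1037 kb) held 30 peaks, or 28.9 per Mb, against 29.0 per Mb on chromosome 11 as a whole. The type II cluster with Krt18 (chr15:101348315-102032026, 683.7 kb) also held 30, or 43.9 per Mb, against 27.6 per Mb on chromosome 15. Genes are packed more densely in the clusters than on their chromosomes. The type I cluster holds 65 protein-coding genes, and chromosome 11 holds 1609 in 122000 kb. The type II cluster holds 27, and chromosome 15 holds 776 in 103900 kb. Peak densities here are per length and not adjusted for the number of genes. Of these 60 peaks, 16 were at a keratin gene end and 16 were only inside a keratin gene. The remaining 28 were neither, and whether they lie in or at other genes was not checked. Their median width of 636.5 bp was near that of the whole list (587 bp), and 7 of the 60 (11.7%) were over 2000 bp, against 4.94% of the list. Those 7 were the peaks described at Krt14 (2), Krt17 (2), Krt5, Krt6a and Krt80. The next widest of the 60 were 1353 bp inside Krt78, 1267 bp near Krt31 and 1259 bp at Krt25, and the fifth widest of the type II cluster was 1196 bp near Krt72.

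Within the type I cluster, the stretch from Krt13 to Krt42 held 13 peaks in 152.6 kb (85.2 per Mb), and peaks covered 11.4% of it. The stretch from Krt33a to Krt36 held 5 (50.9 per Mb) and that from Krt222 to Krt40 held 8 (25.8 per Mb). The block between Krt40 and Krt33a, 443.9 kb with 38 protein-coding genes of which 23 are Krtap genes, held 2 peaks (4.51 per Mb). Within the type II cluster the densities were 88.1 per Mb from Krt4 to Krt18, 62.3 from Krt90 to Krt5, 37.7 from Krt80 to Krt7, 25.2 from Krt87 to Krt82 and 18.9 from Krt71 to Krt76. Of the 10 peaks from Krt4 to Krt18, 5 were those within the bounds of Krt78. The bounds of these stretches were set after the peaks had been seen.

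**Figure D5:**
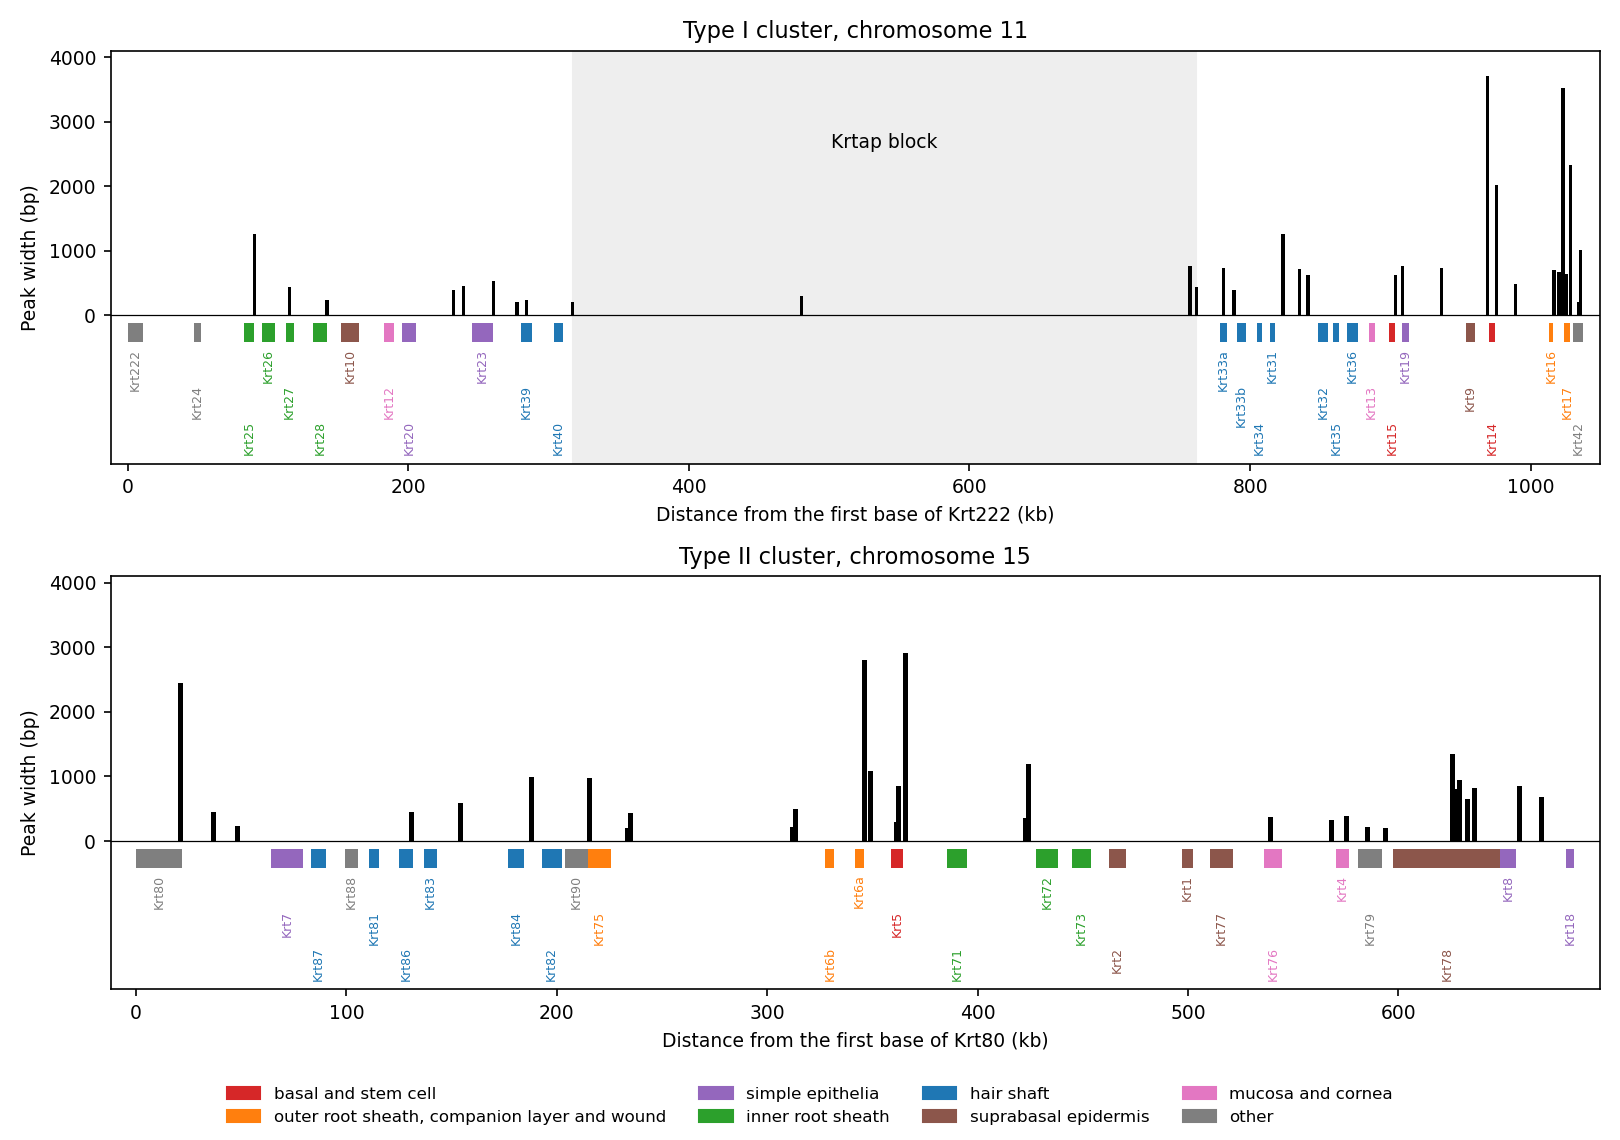
Width of each peak (vertical axis, bp) along the type I and type II clusters (horizontal axes, kb from the first base of the first gene), with keratin genes as boxes coloured by group; bars are drawn at a fixed width and not to scale along the chromosome. The 4 peaks over 2000 bp of the type I cluster stand at Krt14 and Krt17, the 3 of the type II cluster at Krt80, Krt6a and Krt5, and 2 peaks stand in the shaded Krtap block.

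The longest stretches without a peak were measured between peaks and cluster bounds. In the type I cluster they measured 276.5 and 163.0 kb, both in the Krtap block, and 90.1 kb, which holds Krt222 and Krt24. In the type II cluster they measured 114.4 kb, which holds Krt72, Krt73, Krt2, Krt1 and Krt77, then 82.2 kb with Krt7, Krt87, Krt88 and Krt81, and 76.6 kb between Krt75 and Krt6b. The median distance between neighbouring autosomal peaks was 11.7 kb, and 1.29% of those distances were as long as the 276.5 kb one and 6.27% as long as the 114.4 kb one. Outside the clusters, the neighbouring genes Smarce1, Eif1 and Eif4b had end peaks and Ccr7 and Gast had none. The 49997 bp between Krt42 and Eif1, outside the cluster, held 7 peaks of 200 to 1616 bp, the last of which reaches into Eif1. That is 140.0 peaks per Mb, beside 149.7 per Mb from Krt14 to Krt42 (10 peaks in 66.8 kb) and 85.2 per Mb from Krt13 to Krt42. These densities rest on few peaks. Peaks were thus also dense in this ground without keratin genes.

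Of other gene sets of keratinised tissue, end peaks were found at 4 of 56 Krtap genes (7.14%), whose proteins fill the hair shaft, and at 8 of 42 genes of the epidermal differentiation complex (19.0%), many of which encode cornified envelope proteins. Their median lengths of 833 and 1682.5 bp are below that of the keratins. Filament partners are the desmosome and hemidesmosome proteins and filament-binding proteins to which keratins attach. Of their genes, 14 of 17 had end peaks, all but Flg, Hrnr and Tchh. The share over all protein-coding genes, to be set beside each end peak count in this paragraph, was 57.6%. Dsp, the desmosomal plakin desmoplakin, had 8 peaks in the gene and 10000 bp around it, and Jup, the desmosomal plakoglobin, had 5. Of 18 known regulators of keratin or hair genes, 14 had end peaks, Foxc1 and Lhx2 among them. Dlx3, Gata3, Tfap2c and Trp63 did not, although Trp63 held 10 peaks inside the gene and Gata3 6. Gata3 also had a peak within 1000 bp of an annotated start, away from its outer bounds. Such a peak was found at 10 of the 10 regulators with a given start, against 58.3% of all protein-coding genes with one. Lengths of the filament partner and regulator genes were not compared, so their peak counts are not adjusted for length.

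Of markers of the labelled cell type, 7 of 7 hair follicle stem cell markers (Krt15, Cd34, Lhx2, Sox9, Nfatc1, Tcf7l1 and Lgr5) and 4 of 4 basal keratinocyte markers (Krt5, Krt14, Itga6 and Itgb4) had end peaks, against 57.6% of all protein-coding genes. Cd34 and Itga6, which encodes CD49f, are genes the cells were sorted on, and the Krt14 promoter drives the reporter used in the sort. Krt15, Krt5 and Krt14 are members described above. Lhx2, Sox9 and Nfatc1 were also counted among the regulators, and Itga6 and Itgb4 among the filament partners. Of other skin cells, 3 of 4 melanocyte markers (not Tyr), 0 of 3 immune markers, 1 of 3 fibroblast markers (Col1a1) and 1 of 3 endothelial markers (Kdr) had one, so an end peak alone does not tell the cell types apart. The part of such cells in the keratin peaks was not tested.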

How the data were processed

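ATAC-seq was done on 1 Foxc1 knockout and 1 control library of sorted hair follicle stem cells, each sequenced in 2 runs. The authors deposited 1 list of peaks for the whole series, holding chromosome, start and end as base positions, with no counts or scores. Bowtie2, MACS2, bedtools and the mm10 build were used, per the submitters' processing notes; the sources used here give no versions, settings or read filters and do not say how the runs were pooled. Depth is unknown, so weak and absent peaks cannot be separated. There were 0 columns of per-sample values left unused.

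Deposited starts were read as 0-based and converted to 1-based positions, with no filter on peaks. Genes came from a RefSeq table of GRCm38.p6 (the assembly behind mm10) without strand; starts, strands and promoter sequences came from a RefSeq promoter table. Gene lengths and distances are between outermost bounds. An overlap was at least 1 base. Counting used Python 3.11 with pandas 2.3.3 and numpy 2.4.6, was tested on simulated peaks, and figures used matplotlib 3.10.9. No test was made, since neither genotype has values of its own; keratin counts stand beside the same counts over all protein-coding genes.

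Of 48 keratin names put in groups by known site of expression, 46 were found as protein-coding genes; Krt74 and Krt85 are not used here. The members, groups and gene lists were chosen with earlier results of these data known. All members are accounted for; those given in full were 23 genes listed by name, the 5 with the most peaks, the 5 widest peaks and 3 longest peak-free stretches of each cluster and the neighbouring genes. Other genes named were chosen after their values were seen.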

Additional observations from a re-analysis of the deposited data

How the results depend on the processing

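Of 24 alternatives to 5 results, 20 stayed inside the 95% interval of the main value and 4 fell outside it. The intervals (Wilson for shares, exact Poisson for densities) hold counting error only and treat genes or peaks as independent, although neighbours share peaks. They are wide, 19.5% to 43.5% for the share with an end peak, so staying inside does not show that a value is stable. The share of keratin genes with an end peak lay between 24.4% and 41.5% over windows of 500 and 2500 bp, stricter overlap, wider peaks, and without genes within 2000 bp of another gene's end, against 30.2%; in each of these it was below the share of all protein-coding genes. Without Krt42, Krt90 and Krt75, which count through a shared peak, it was 26.0% (an alternative chosen after seeing the data). The number of genes with a promoter peak lay between 4 and 9 of 36 over windows and peak widths, against 6 of 36, beside 53.1% to 61.2% of all protein-coding genes. It was 4 of the 27 genes with a CpG ratio under 0.4 (14.8%, near the 19.9% of all such genes; also chosen after seeing the data). With only the peaks of at least the median width, 24.5% of keratin genes had a peak inside the gene in place of 37.7%, against 58.8% of all protein-coding genes, and the densities were 16.4 per Mb in the type I cluster, against 15.2 on chromosome 11, and 23.4 per Mb in the type II cluster, against 13.9 on chromosome 15; fewer peaks enter these values by construction. With the Krtap block left out, the type I cluster held 47.2 peaks per Mb in place of 28.9. No paired analysis was possible because neither genotype nor run has values of its own. With the number of reads unknown, a gene without a peak is a gene where none was detectable at this depth.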
